A study of Homo sapiens with 9 samples.

Results

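The 42 genes described here encode the core of cell cycle control: D, E, A, B, F and G cyclins, the cyclin-dependent kinases (CDKs) 1, 2, 4, 6 and 7, their inhibitors, the retinoblastoma (pocket) proteins, the E2F and DP transcription factors, the CDC25 phosphatases, WEE1 and PKMYT1, and SKP2. They were taken as a list of gene symbols, and all 42 were found among the 57338 Ensembl genes of the table. RNA was measured in 9 libraries labelled as HEK293T, a human embryonic kidney line that carries the SV40 large T antigen, a viral protein that binds the pocket proteins. By the labels and the methods, cells were transfected with an EGFP plasmid that was empty or encoded human protamine 1 (hPRM1) or human protamine 2 (hPRM2) fused to EGFP, and cells with high EGFP were sorted 3 days later, EGFP and the sort being common to all groups as labelled. Each group (Emp, PRM1 and PRM2 in the labels) had 3 libraries, and nothing in the labels says whether these came from separate transfections, so that p-values measure the spread between these samples only. Values are RPKM, reads per kilobase of gene, scaled to a common total of reads. The libraries were made from the 3′ ends of mRNA, so that dividing by gene length lowers long genes, and levels are compared between groups rather than between genes wherever possible.

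A cell enters the cycle when D cyclins activate CDK4 and CDK6, which phosphorylate the pocket proteins RB1, RBL1 and RBL2 and free the E2F factors to switch on genes of DNA synthesis, cyclin E among them. Cyclin A and cyclin B with CDK1 and CDK2 then drive S phase and mitosis, gated by WEE1 and PKMYT1, which add inhibitory phosphates to CDK1, and by the CDC25 phosphatases, which remove them. INK4 proteins (CDKN2A to CDKN2D) block CDK4 and CDK6, and CIP/KIP proteins (CDKN1A, CDKN1B and CDKN1C) block CDK2 complexes. In resting cells E2F4 with RBL2 forms the DREAM complex, which binds promoters of cell cycle genes, often at E2F sites or at a short element called CHR.

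The libraries labelled hPRM1 went against their label. PRM1 was listed at 0 in all 9 libraries, whereas PRM2 ranged from 36130 to 71224 RPKM in the hPRM2 libraries and was listed at 0 in the other 6. Of 10 genes that mark HEK293T, 7 (LIN28B, IGF2BP1, PAX2, LHX1, NEFL, NEFM and INA) read 0 in every library labelled hPRM1, and the list summed to 28.2 to 39.7 RPKM there, against 572 to 744 in the empty vector and 530 to 751 in hPRM2. Erythroid markers took 83.2% to 86.6% of all summed RPKM in the libraries labelled hPRM1, with 8 of its 10 genes above 0 in every library and the globin genes HBA2, HBB and HBA1 highest. Neutrophil and monocyte markers summed to 6546 to 7619 RPKM there (11 of 12 above 0 in every library, FCGR3B listed at 0), lymphocyte markers to 647 to 892 (10 of 10) and platelet markers to 336 to 595 (6 of 6). The same lists reached at most 3.02, 1.02 and 32.1 RPKM in the empty vector and 20.7, 0.406 and 14.0 in hPRM2. These libraries also carry library names from a number series of their own, so that this series and the group cannot be told apart, and their labelled condition is used below as a name only. Reads on genes were estimated at 7.93 to 10.79 (in units of 1e6 reads) in the empty vector, 4.21 to 5.86 in the libraries labelled hPRM1 and 1.27 to 2.65 in hPRM2. A listed 0 allows up to 0.378, 0.713 and 2.36 CPM (reads scaled to a common total) in the shallowest library of each, for counting error only. Replicate 1 of hPRM2 stood apart, with 9652 genes above 0 against 14353 and 15633 in the other two. Replicates 2 and 3 stood apart in another way: their RPKM summed to 2.11e+07 and 1.82e+07, against 3.8e+06 in replicate 1 and 2.61e+06 to 3.16e+06 in the empty vector. The 42 genes took 0.0105% and 0.0110% of that sum in replicates 2 and 3, 0.113% in replicate 1 and 0.109% to 0.119% in the empty vector. Of 20 housekeeping genes, 2 were listed at 0 in hPRM2 replicate 1 and 1 in empty vector replicate 3, so a listed 0 is not read as absence.

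Promoters are shown of genes that differed together and of genes that went the other way. E2F factors are known to bind E2F sites, and the DREAM complex E2F sites or the CHR. The CCAAT box is marked as well and is not taken as a site of either. The windows run from 250 bases before to 50 after the gene start (RefSeq, GRCh38.p14, written 5′ to 3′ on the gene's strand), and 33 of the 42 genes had at least 1. A single window is printed for each gene, chosen after the matches were seen, and CDC25C, CDK1, CCND3 and RBL2 have further windows whose matches differ. Capitals mark, on both strands, the E2F core (TTCCCGC or TTCGCGC or TTGCCGC or TTGGCGC), the CHR (TTTGAA) and the CCAAT box (CCAAT); none of these letters overlap one another in the windows printed. CCNB2 (chr15:59104896-59105195, plus strand), CDC25C (chr5:138331755-138332054, minus strand), CDK1 (chr10:60778228-60778527, plus strand) and E2F1 (chr20:33686336-33686635, minus strand) were far lower in the libraries labelled hPRM1 than in the empty vector. CCND3 (chr6:41941759-41942058, minus strand) and RBL2 (chr16:53434221-53434520, plus strand) were higher.
CCNB2: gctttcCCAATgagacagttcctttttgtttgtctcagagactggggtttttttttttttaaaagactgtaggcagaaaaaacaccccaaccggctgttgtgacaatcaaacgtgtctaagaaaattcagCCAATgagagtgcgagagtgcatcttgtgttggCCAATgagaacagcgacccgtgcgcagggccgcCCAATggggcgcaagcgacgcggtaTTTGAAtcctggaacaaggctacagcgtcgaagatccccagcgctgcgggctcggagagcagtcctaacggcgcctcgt
CDC25C: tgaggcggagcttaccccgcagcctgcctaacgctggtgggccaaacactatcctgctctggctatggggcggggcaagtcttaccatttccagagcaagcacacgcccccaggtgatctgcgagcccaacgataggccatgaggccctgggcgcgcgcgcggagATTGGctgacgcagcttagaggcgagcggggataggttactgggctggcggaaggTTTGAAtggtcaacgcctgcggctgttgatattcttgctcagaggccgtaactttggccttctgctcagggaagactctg
CDK1: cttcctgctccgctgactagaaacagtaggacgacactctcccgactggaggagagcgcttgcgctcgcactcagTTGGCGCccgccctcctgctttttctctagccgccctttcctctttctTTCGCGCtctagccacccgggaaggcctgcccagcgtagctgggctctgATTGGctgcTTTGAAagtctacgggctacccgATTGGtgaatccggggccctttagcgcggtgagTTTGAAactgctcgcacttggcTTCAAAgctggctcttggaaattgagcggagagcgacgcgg
E2F1: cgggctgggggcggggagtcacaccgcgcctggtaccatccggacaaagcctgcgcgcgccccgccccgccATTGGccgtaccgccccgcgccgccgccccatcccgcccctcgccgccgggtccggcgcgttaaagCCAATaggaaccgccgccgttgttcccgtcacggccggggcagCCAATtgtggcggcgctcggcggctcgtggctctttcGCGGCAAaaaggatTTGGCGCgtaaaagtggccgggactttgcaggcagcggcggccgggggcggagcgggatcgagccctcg
CCND3: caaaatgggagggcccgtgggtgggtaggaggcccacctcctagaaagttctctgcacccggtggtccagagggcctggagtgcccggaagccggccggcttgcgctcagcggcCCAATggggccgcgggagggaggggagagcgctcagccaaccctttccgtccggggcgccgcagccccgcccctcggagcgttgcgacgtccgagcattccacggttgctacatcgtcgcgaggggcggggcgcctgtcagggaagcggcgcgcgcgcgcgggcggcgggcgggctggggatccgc
RBL2: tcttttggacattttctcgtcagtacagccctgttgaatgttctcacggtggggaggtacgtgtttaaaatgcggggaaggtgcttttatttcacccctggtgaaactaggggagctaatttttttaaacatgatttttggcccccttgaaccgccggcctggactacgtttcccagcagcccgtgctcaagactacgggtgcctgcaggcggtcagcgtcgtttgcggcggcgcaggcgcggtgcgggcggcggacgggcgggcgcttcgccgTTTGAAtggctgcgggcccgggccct

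The CCNB2 window held 4 CCAAT boxes and 1 CHR, and the CDC25C window held 1 of each. CDK1 had 2 E2F cores, 3 CHR and 2 CCAAT boxes in its window, and E2F1, which encodes an E2F itself, had 2 E2F cores and 3 CCAAT boxes. The CCND3 window had 1 CCAAT box and neither of the other motifs. The RBL2 window shown had 1 CHR and neither of the others, and its other window had a CCAAT box and no CHR. Of all 35116 windows of this length, 13% held an E2F core, 15.2% a CHR and 34.6% a CCAAT box. Of the 52 windows of the 33 genes, some of which overlap, 26.9% held an E2F core, 21.2% a CHR and 46.2% a CCAAT box. Counted by gene, an E2F core was found for 8 of the 18 genes with a window that were lower in the libraries labelled hPRM1 under every scaling described below, and for 4 of the other 15, against 15.3% of all genes with a window. A CHR was found for 6 of the 18 and 2 of the 15 (18.2% of all genes), and a CCAAT box for 13 of the 18 and 6 of the 15 (39.7% of all genes). The 18 genes were set apart by their values, so these counts are a description. These matches describe letters in a window, not sites that were measured.

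**Figure D1:**
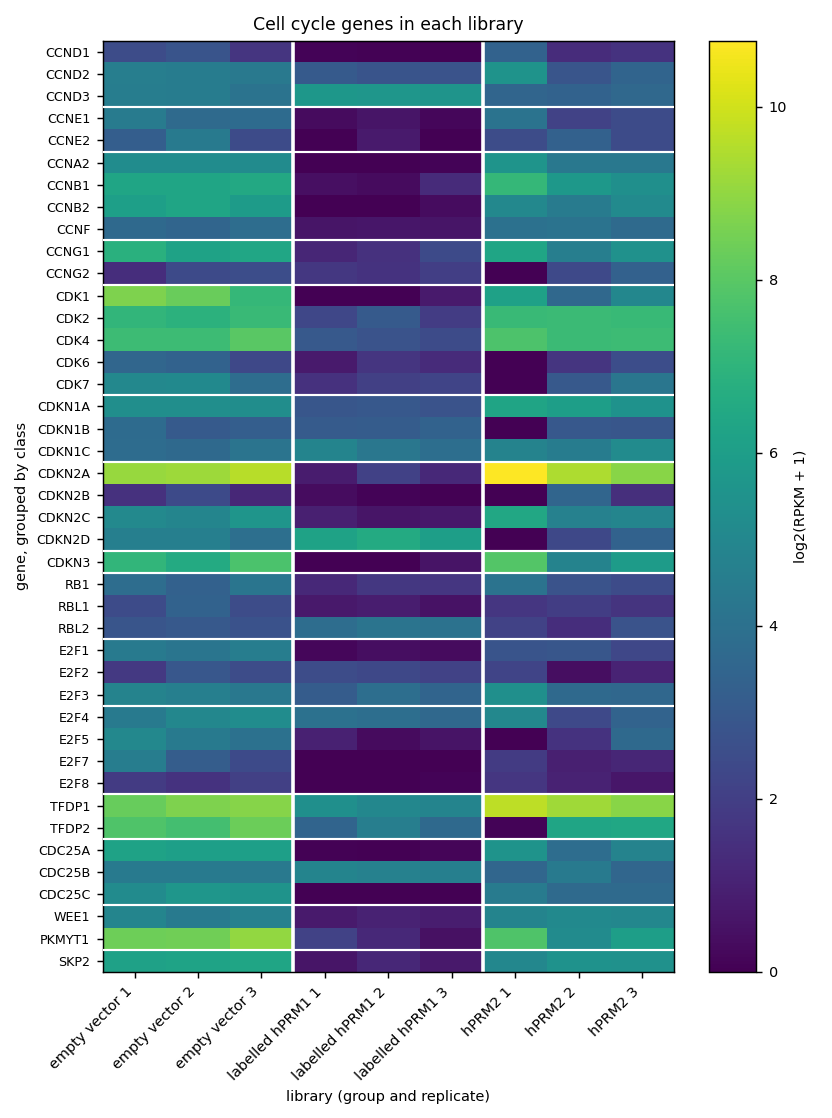
Level of each of the 42 genes (rows, in classes parted by white lines) in each of the 9 libraries (columns), as log2(RPKM + 1) in colour from dark (0) to yellow (high). The 3 columns labelled hPRM1 are dark for the E, A and B cyclins, CDK1, CDC25A and CDC25C and brighter than the rest for CCND3, CDKN2D and RBL2.

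The first question was how these genes differed between the proliferating HEK293T libraries and the libraries labelled hPRM1. Of the 42 genes, 34 were lower and 3 higher than in the empty vector, by limma on log2(RPKM + 1) with Benjamini-Hochberg adjustment over all genes tested and a fold of at least 2. The 3 higher genes were CCND3, CDKN2D and RBL2, and the 5 with no call were CCNG2, CDKN1B, CDKN1C, E2F2 and CDC25B. This has to be read against all 13588 genes tested, of which 62.5% were called lower and 12.9% higher, and whose median log2 difference was -1.72, against -3.25 for the 42 genes. When libraries were rescaled by the median of ratios, which moved the median of all genes to -0.12, 25 of the 42 were lower and 9 higher, against 28.9% lower and 28.8% higher of all genes, and under quantile normalization 25 were lower and 8 higher (32.3% and 25.6% of all genes). Under all 3 scalings 24 genes were lower and 3 higher. Where a difference is called the largest or smallest below, this refers to values as deposited with a pseudocount of 1. The 7 markers of cycling cells (MKI67, TOP2A, PCNA, MCM2, TYMS, RRM2 and BIRC5) moved with them, at a sum of 1399 to 1730 RPKM in the empty vector, 595 to 1585 in hPRM2 and 5.12 to 10.9 in the libraries labelled hPRM1. The part of the blood cell markers, of the erythroid share and of the missing HEK293T markers in these differences was not tested. In such bulk libraries fewer cells of a type and less RNA per cell cannot be told apart. All 42 genes passed the filter on low values, 17 of them only through the empty vector libraries, and those had to differ. They were CCND1, CCNE1, CCNE2, CCNA2, CCNB2, CCNF, CDK1, CDKN2B, CDKN2C, CDKN3, RBL1, E2F1, E2F5, E2F7, E2F8, CDC25A and CDC25C. Adjusted p-values printed for these genes against the empty vector are a description and no support.

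**Figure D2:**
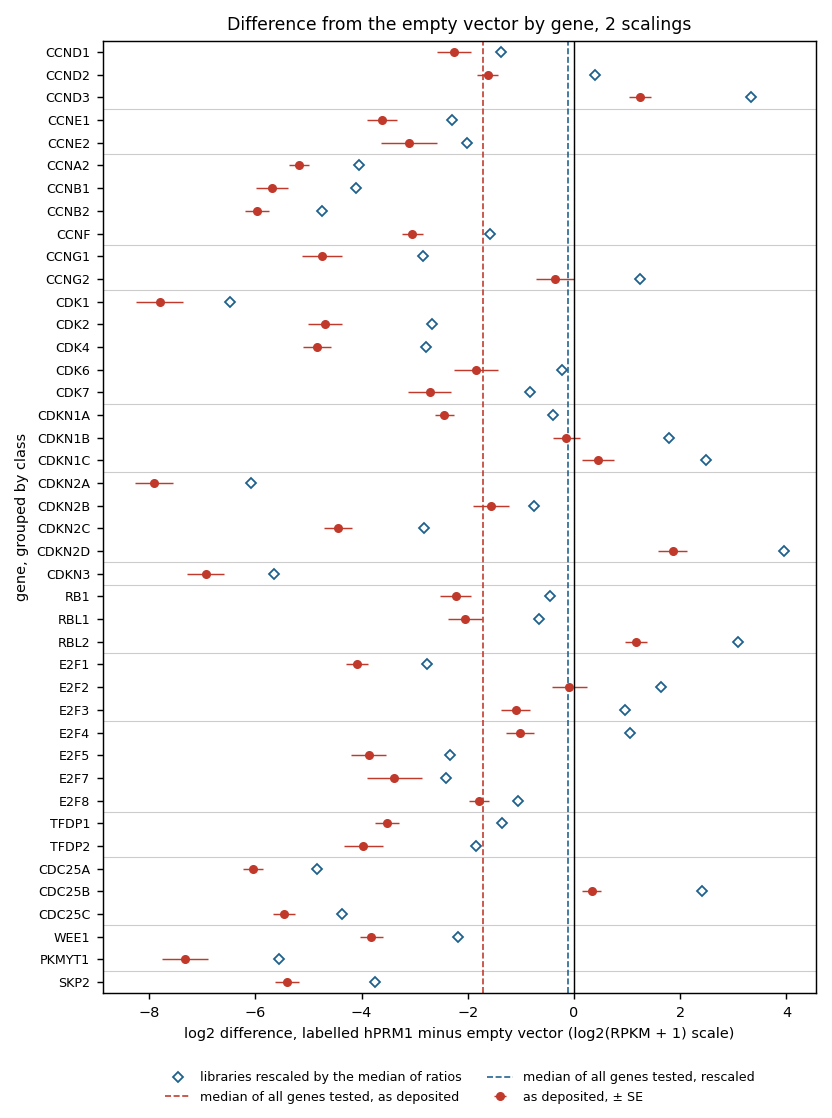
Log2 difference between the hPRM1-labelled libraries and the empty vector for each gene, as deposited (filled circles, with the standard error) and after rescaling by the median of ratios (open diamonds), with dashed lines at the median of all genes tested. CDK1 and CDKN2A lie farthest to the left on both scales, and CCND3, CDKN2D and RBL2 lie to the right of 0 on both.

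Among the D cyclins, the subunits that link growth signals to CDK4 and CDK6, the 3 genes did not move together. CCND1 (GRCh38, chr11:69641087-69654474) read 4.63, 5.94 and 2.19 RPKM in empty vector replicates 1 to 3 and 0.0841, 0.0585 and 0 in the libraries labelled hPRM1, a log2 difference of -2.26 ± 0.32 (SE; adjusted p = 0.000559, limma). CCND2 (chr12:4273772-4305350) read 23.2, 22.2 and 19.3 RPKM in the empty vector and 7.17, 6.02 and 5.80 in the libraries labelled hPRM1, with a difference of -1.62 ± 0.20 as deposited that turned to 0.39 under the median of ratios and 0.04 under quantile normalization, neither of them called. CCND3 (chr6:41934933-42050357) went the other way, from 22.8, 22.0 and 16.1 RPKM to 51.4, 49.0 and 46.1, a difference of 1.24 ± 0.20 (adjusted p = 0.0012, limma) that was 3.33 under the median of ratios. None of the 3 genes overlapped between the groups, and 80.8% of all genes tested did not overlap either. CCND1 passed the filter on low values only through the empty vector, so it had to differ. With a pseudocount of 5 in place of 1, CCND1 came to -0.85, short of the fold of 2. Of the RPKM of the 3 D cyclins, CCND3 made up 88.5% ± 0.73 (SD, n = 3) in the libraries labelled hPRM1 and 43.9% ± 1.09 in the empty vector, and CCND1 made up 0.0832% ± 0.0744 and 8.95% ± 3.00.

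The cyclins of S phase and mitosis were near 0 in the libraries labelled hPRM1. Both E cyclins, which partner CDK2 at the start of S phase, were lower (CCNE1 by -3.61 ± 0.29 and CCNE2 by -3.11 ± 0.53), and CCNE1, the larger fall, read 21.3, 12.1 and 12.4 RPKM in the empty vector and 0.245, 0.512 and 0.138 in the libraries labelled hPRM1. All 4 of CCNA2, CCNB1, CCNB2 and CCNF were called lower under each scaling. CCNB2, a mitotic partner of CDK1, had the largest fall of the 4: it read 65.9, 79.0 and 59.2 RPKM in the empty vector and 0, 0 and 0.293 in the libraries labelled hPRM1 (-5.98 ± 0.22, adjusted p = 3.72e-06, limma). CCNA2, which works in S phase and early mitosis, was steady in the empty vector at 36.2, 36.2 and 35.9 RPKM and read 0, 0 and 0.0751 in the libraries labelled hPRM1. CCNF, a cyclin that binds no CDK but serves a ubiquitin ligase, had the smallest difference of the 4 (-3.05 ± 0.20).

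The G cyclins parted. CCNG1, a p53 target, read 113.5, 71.7 and 81.6 RPKM in the empty vector against 1.24, 1.94 and 4.38 in the libraries labelled hPRM1 (-4.75 ± 0.37, adjusted p = 4.04e-05, limma). CCNG2, linked to exit from the cycle, overlapped between the groups, at 1.65, 4.34 and 4.90 RPKM against 2.38, 1.98 and 3.00, with a difference of -0.35 ± 0.36 (adjusted p = 0.391, limma). Its sign depended on the scaling, with 1.23 under the median of ratios and 1.10 under quantile normalization, both called.

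All 5 CDKs were lower as deposited, and CDK1, CDK2 and CDK4 stayed called under each scaling. CDK1 (chr10:60778331-60794852), the mitotic kinase, had the second largest difference of the 42 genes as deposited: 413.9, 318.1 and 143.0 RPKM in the empty vector against 0, 0 and 0.702, or -7.81 ± 0.45 (adjusted p = 1.2e-05, limma). CDK2 and CDK4, the kinases of S phase entry and of G1, were lower by -4.68 ± 0.32 and -4.85 ± 0.26 but were still read in every library labelled hPRM1, at 2.81 to 7.31 and 4.51 to 7.15 RPKM. CDK6, the second partner of the D cyclins, differed by -1.84 ± 0.41 as deposited and by -0.23 under the median of ratios, where it was not called. CDK7, part of the CDK-activating kinase and of the transcription factor TFIIH, differed by -2.72 ± 0.40 and -0.82 on the same scales.

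The inhibitors held the widest spread of any role. CDKN2A (chr9:21967753-21995301), whose products block CDK4 and CDK6 and shield p53, was the highest of the 42 genes in the empty vector at 544.9, 588.6 and 768.9 RPKM and read 0.762, 3.24 and 1.38 in the libraries labelled hPRM1, the largest difference of the list as deposited (-7.91 ± 0.35, adjusted p = 5.4e-06, limma). Under the median of ratios it stood at -6.08 and CDK1 at -6.48. CDKN2D (chr19:10566462-10569059), of the same INK4 family, rose from 24.2, 24.0 and 14.2 RPKM to 71.9, 94.8 and 64.3 (1.86 ± 0.28, adjusted p = 0.000767, limma; 3.95 under the median of ratios), and the call was lost when all 9 libraries were fitted together (adjusted p = 0.0582). CDKN2C was lower on each scale (-4.45 ± 0.26), and CDKN2B, at 1.29 to 4.31 RPKM in the empty vector and at most 0.280 in the libraries labelled hPRM1, was called lower only as deposited (-0.75 under the median of ratios). Whether the counting used the strand is not given in the sources used here, so reads of CDKN2B and of the antisense RNA across it cannot be told apart.

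Of the CIP/KIP inhibitors only CDKN1A, which encodes the p53 target p21, was called as deposited, and it was not called under either rescaling. It read 38.8, 39.0 and 37.8 RPKM in the empty vector and 6.45, 6.77 and 5.65 in the libraries labelled hPRM1 (-2.44 ± 0.18, adjusted p = 3.05e-05, limma), with a difference of -0.40 under the median of ratios. CDKN1B, which encodes p27, an inhibitor of resting cells, overlapped between the groups at 12.7, 7.24 and 8.28 against 7.58, 7.79 and 9.30 RPKM (-0.14 ± 0.26, adjusted p = 0.621, limma), and was called higher at 1.80 under the median of ratios and 1.46 under quantile normalization. CDKN1C, which encodes p57, read 13.0, 11.97 and 16.7 RPKM in the empty vector and 28.1, 18.0 and 13.9 in the libraries labelled hPRM1 (0.45 ± 0.30, adjusted p = 0.204), and was called higher at 2.49 and 2.11 under the rescalings. CDKN3, a phosphatase that acts on CDKs and is itself made in cycling cells, sat at 135.6, 95.3 and 208.9 RPKM in the empty vector and at 0, 0 and 0.494 in the libraries labelled hPRM1 (-6.94 ± 0.34, adjusted p = 7.77e-06, limma).

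Of the pocket proteins, RBL2 rose while RBL1 and RB1 fell. RBL1 (chr20:36996349-37095995), whose product p107 is made mostly in cycling cells, read 4.43, 9.53 and 4.59 RPKM in the empty vector and 0.659, 0.830 and 0.458 in the libraries labelled hPRM1 (-2.06 ± 0.32, adjusted p = 0.000941, limma). RBL2 (chr16:53433977-53491649), whose product p130 is the pocket protein of resting cells, read 6.07, 7.02 and 5.63 RPKM against 13.4, 16.5 and 15.9 (1.17 ± 0.20, adjusted p = 0.00146, limma). RB1 read 13.6, 9.06 and 17.4 RPKM against 1.39, 2.39 and 2.26 (-2.23 ± 0.30, adjusted p = 0.000433, limma). No pocket protein overlapped between the groups as deposited, and 80.8% of all genes tested did not overlap either. RBL1 passed the filter on low values only through the empty vector, so it had to differ. Under the median of ratios RBL2 stood at 3.09 and was called, whereas RBL1 at -0.66 and RB1 at -0.45 were not. With a pseudocount of 5, RBL2 at 0.85 and RBL1 at -0.96 fell short of the fold of 2. RBL2 made up 85.3% ± 1.54 (SD, n = 3) of the RPKM of the 3 genes in the libraries labelled hPRM1 and 24.3% ± 3.60 in the empty vector.

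**Figure D3:**
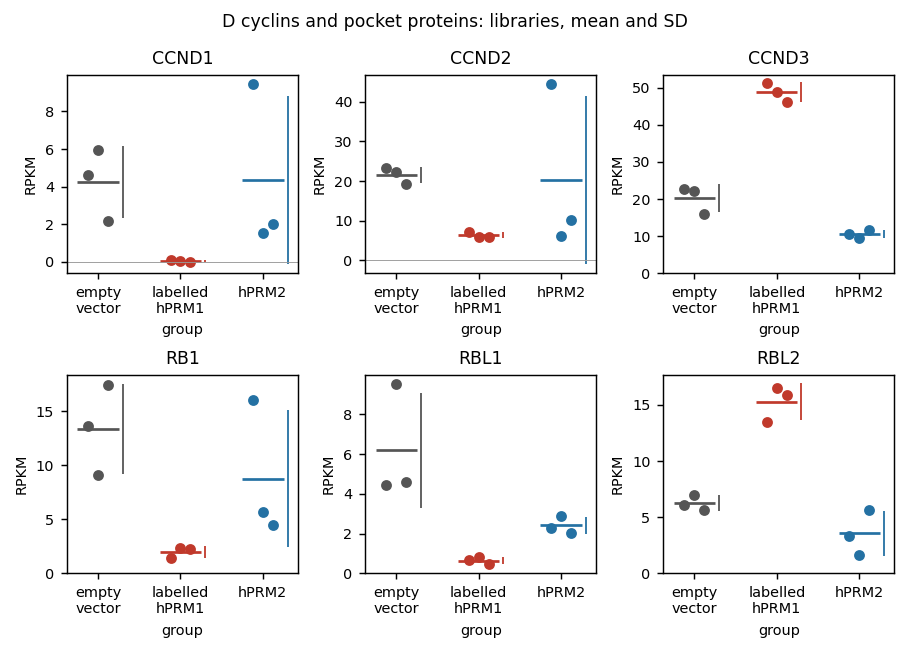
RPKM of the 3 D cyclins and the 3 pocket proteins in each library (points), with the mean of each group (horizontal bar) and 1 SD on either side of it (vertical line). CCND3 and RBL2 are highest in the 3 libraries labelled hPRM1, and CCND1, RB1 and RBL1 are lowest there, while hPRM2 replicate 1 lies above the other libraries of its group for CCND1, CCND2 and RB1.

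Among the activator E2Fs, E2F1 was called lower on every scale, at 20.9, 17.2 and 22.3 RPKM in the empty vector and 0.151, 0.316 and 0.255 in the libraries labelled hPRM1 (-4.08 ± 0.21, adjusted p = 7.91e-06, limma). E2F2 overlapped between the groups, at 2.48, 6.603 and 4.69 against 4.59, 4.09 and 3.41 RPKM (-0.09 ± 0.33, adjusted p = 0.815, limma), and was called higher at 1.64 and 1.42 under the median of ratios and quantile normalization. E2F3 read 27.4, 24.3 and 18.6 RPKM in the empty vector and 7.78, 14.0 and 9.95 in the libraries labelled hPRM1 (-1.09 ± 0.27, adjusted p = 0.00884, limma), and its sign turned to 0.95 and 0.55 under the rescalings, without a call. The call was also lost without empty vector replicate 1 (-0.98) or replicate 1 labelled hPRM1 (-0.91). E2F1 was thus the activator whose direction did not depend on the scaling.

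The E2Fs that act mainly as repressors parted in the same way. E2F4, the E2F of the DREAM complex, read 20.3, 30.2 and 36.9 RPKM in the empty vector and 15.1, 14.0 and 11.5 in the libraries labelled hPRM1 (-1.02 ± 0.27, adjusted p = 0.0109, limma), just past the fold of 2, and its sign turned to 1.06 (called) and 0.65 (not called) under the rescalings. Without empty vector replicate 2 or 3 or replicate 3 labelled hPRM1 it stood at -0.97, -0.84 and -0.92 and was not called. E2F5, the other E2F that pairs with p130, was far lower on every scale, from 31.1, 20.7 and 15.4 RPKM to 0.997, 0.248 and 0.479 (-3.87 ± 0.32, adjusted p = 5.36e-05, limma). E2F7 and E2F8 are themselves induced late in G1 and shut E2F targets down again. E2F7 read 22.3, 8.06 and 4.35 RPKM in the empty vector and was listed at 0 in all 3 libraries labelled hPRM1, so no fold is given, and E2F8 read 1.95 to 3.12 RPKM against at most 0.0640. The DP partners, which form the DNA-binding dimer with E2Fs, were both lower on every scale, TFDP1 by -3.52 ± 0.23 and TFDP2, at 223, 184.1 and 324.7 RPKM against 10.2, 23.6 and 11.6, by -3.97 ± 0.37 (adjusted p = 8.03e-05, limma).

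The regulators of CDK1 activity were called lower, except CDC25B. CDC25A, which opens S phase, read 73.4, 66.1 and 65.9 RPKM in the empty vector and 0.04997, 0 and 0.112 in the libraries labelled hPRM1 (-6.04 ± 0.19, adjusted p = 2.56e-06, limma). CDC25C, a mitotic phosphatase, read 36.0, 49.8 and 45.2 RPKM and was listed at 0 in all 3 libraries labelled hPRM1. CDC25B, which starts mitosis, read 20.5, 20.8 and 19.4 RPKM against 28.2, 25.4 and 23.9: the groups did not overlap, but the difference of 0.33 ± 0.18 was not called (adjusted p = 0.122, limma), and it was 2.41 and called under the median of ratios. Of the kinases that hold CDK1 back, PKMYT1 had the larger difference, at 331.8, 344.9 and 518.0 RPKM against 3.36, 1.34 and 0.410 (-7.33 ± 0.43, adjusted p = 1.38e-05, limma), and WEE1 differed by -3.82 ± 0.22. SKP2, the ubiquitin ligase subunit that marks p27 for destruction, read 70.9, 74.5 and 78.8 RPKM against 0.535, 1.28 and 0.654 (-5.40 ± 0.23, adjusted p = 4.73e-06, limma).

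Counted by overlap, the libraries labelled hPRM1 lay wholly below the empty vector for 34 of the 42 genes and wholly above it for 4, CDC25B being the fourth beside CCND3, CDKN2D and RBL2. Of all genes tested, 66.4% lay wholly below and 14.5% wholly above. The count of genes above is thus no larger a share than that of all genes.

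Ratios of related genes were taken within a library as differences of log2(RPKM + 1), in which a scaling factor cancels except for the added 1. Where a gene reads well below 1 RPKM, the added 1 sets most of its term, and the scaling then stays in the difference. In all, 15 pairs were compared in 3 comparisons, 45 exact two-sided permutation tests in all, whose smallest possible p is 0.1 (0.15 after Benjamini-Hochberg adjustment over the 45), so none could pass 0.05. Between the hPRM1-labelled libraries and the empty vector, the groups did not overlap for 13 of the 15 pairs, the exceptions being CCNE2/CCNE1 and TFDP2/TFDP1. Of all single genes tested, 80.8% did not overlap either, and the share over other pairs of genes was not counted. For the D cyclins, log2 (RPKM + 1) of CCND3 less that of CCND1 was 5.57 ± 0.02 (SD, n = 3) in the libraries labelled hPRM1 and 2.08 ± 0.34 in the empty vector, a difference of 3.50 (exact permutation p = 0.1). CCND1 read at most 0.0841 RPKM in the libraries labelled hPRM1, so the value there is close to log2(RPKM + 1) of CCND3 alone. RBL1, CDC25A, CDKN2C and E2F1 also read below 1 RPKM in each of these libraries. RBL2/RBL1 was 3.30 ± 0.21 against 0.08 ± 0.41, a difference of 3.23 (exact permutation p = 0.1), and RBL2/RB1 differed by 3.40. CDC25B/CDC25A and CDKN2D/CDKN2C moved most, by 6.38 and 6.30, the latter from -0.79 ± 0.79 in the empty vector to 5.52 ± 0.40. CCNG2/CCNG1 differed by 4.40, WEE1/PKMYT1 by 3.51, E2F4/E2F1 by 3.06, CDK6/CDK4 by 3.01, E2F3/E2F1 by 2.99, CCND3/CCND2 by 2.86 and CDKN1B/CDKN1A by 2.30. In each of these pairs the first gene gained on the second. The genes were chosen with earlier results of these data known, the D cyclin and pocket protein switches among them, so this shared direction is a description. CCND2/CCND1 moved least of the 13, by 0.63, and with a pseudocount of 5 its difference was -0.37.

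For hPRM2 the question was whether the transfected protamine, whose RNA these libraries do hold, went with a change in the same genes. None of the 42 was called against the empty vector by limma, where 1.37% of 13126 genes tested were called lower and 1.36% higher. In data simulated with the spread of these libraries, 10% of log2 changes of 2 were called, 38% of 3 and 80% of 6. A gene without a call is thus not read as unchanged. Of the 42 genes, 10 had an unadjusted p under 0.05, and the share of all genes under it was not counted. The median log2 difference of the 42 was -0.82, against -0.72 over all genes tested. The hPRM2 libraries lay wholly below the empty vector for 14 genes (33.3%, against 29.9% of all genes) and wholly above it for 3, CDKN1A, CDKN1C and TFDP1 (7.14%, against 6.01%). With libraries rescaled by the median of ratios or by quantile normalization, none was called either.

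Replicate 1 of hPRM2, the deepest of the 3, decided this count, which stayed at 0 without replicate 2 or 3. It listed CCNG2, CDK6, CDK7, CDKN1B, CDKN2B, CDKN2D and E2F5 at 0, and none of the 42 genes was at 0 in replicates 2 and 3. Without it, 10 of the 42 were called lower by limma and none higher (over all genes tested, 12.3% and 6.17%). These were CCNE1, CCNB2, CCNG1, CDK1, E2F1, E2F4, TFDP2, CDC25A, CDC25C and PKMYT1. A fit of all 9 libraries, which shares the spread of the other groups, called 6 lower, CCNB2, CDK1, E2F1, E2F7, CDC25C and PKMYT1, as 12.3% of all genes were. CDK1, CCNB2, E2F1, CDC25C and PKMYT1 were in both sets.

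CDK1 read 71.4, 11.3 and 30.5 RPKM in hPRM2 replicates 1 to 3, below each empty vector library (-3.14 ± 0.71, adjusted p = 0.0652, limma, and 0.0201 without replicate 1). PKMYT1 read 220.9, 35.3 and 64.8 RPKM (-2.27 ± 0.65, adjusted p = 0.102, limma). E2F1 read 5.86, 6.27 and 3.86 RPKM, where the empty vector lay at 17.2 to 22.3 (-1.75 ± 0.49, adjusted p = 0.0955, limma). These 3 genes did not overlap between the groups in any library, and 35.9% of all genes tested did not overlap either.
CCNB2 at 31.8, 21.0 and 34.8 RPKM and CDC25C at 21.3, 12.2 and 12.04 RPKM also lay below every empty vector library (adjusted p = 0.117 and 0.101, limma). TFDP2, the DP partner, had the largest standard error of the list, at 0.0830, 79.3 and 83.1 RPKM in hPRM2 (-3.62 ± 1.61, adjusted p = 0.212, limma), and without replicate 1 its difference was -1.53.

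For CDK2, CDK4 and WEE1 no difference was called in hPRM2. CDK2 read 155.4, 161.6 and 151.2 RPKM, CDK4 216.5, 160.0 and 165.6 RPKM and WEE1 28.2, 33.0 and 30.5 RPKM, with differences of 0.19 ± 0.28, -0.11 ± 0.32 and 0.28 ± 0.38 (adjusted p = 0.673, 0.846 and 0.646, limma). CDKN1A, the p21 gene, read 77.7, 63.8 and 43.8 RPKM against 37.8 to 39.0 in the empty vector, a difference of 0.63 ± 0.37 that was not called (adjusted p = 0.313, limma). CDKN1C read 27.2, 21.7 and 35.6 RPKM against 11.97 to 16.7 (0.95 ± 0.43, adjusted p = 0.221, limma). The D cyclin and pocket protein shares spread widely, with CCND3 at 40.1% ± 20.9 (SD, n = 3) of D cyclin RPKM and RBL2 at 26.0% ± 17.7 of pocket protein RPKM. Of the 15 ratios, 4 did not overlap between hPRM2 and the empty vector: CDKN1B/CDKN1A (-2.02), E2F3/E2F1 (1.37), TFDP2/TFDP1 (-4.29) and WEE1/PKMYT1 (2.55), each at the smallest exact permutation p of 0.1. Of all single genes tested, 35.9% did not overlap either, and the share over other pairs of genes was not counted. In hPRM2 replicates 1 to 3 CDKN1B/CDKN1A was -6.298, -3.046 and -2.586, and TFDP2/TFDP1 was -9.585, -2.885 and -2.461. Leaving out 1 library, the differences ranged from -2.713 to -0.857 for CDKN1B/CDKN1A and -5.545 to -1.983 for TFDP2/TFDP1. They ranged from 0.8601 to 1.747 for E2F3/E2F1 and 1.921 to 3.337 for WEE1/PKMYT1.

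**Figure D4:**
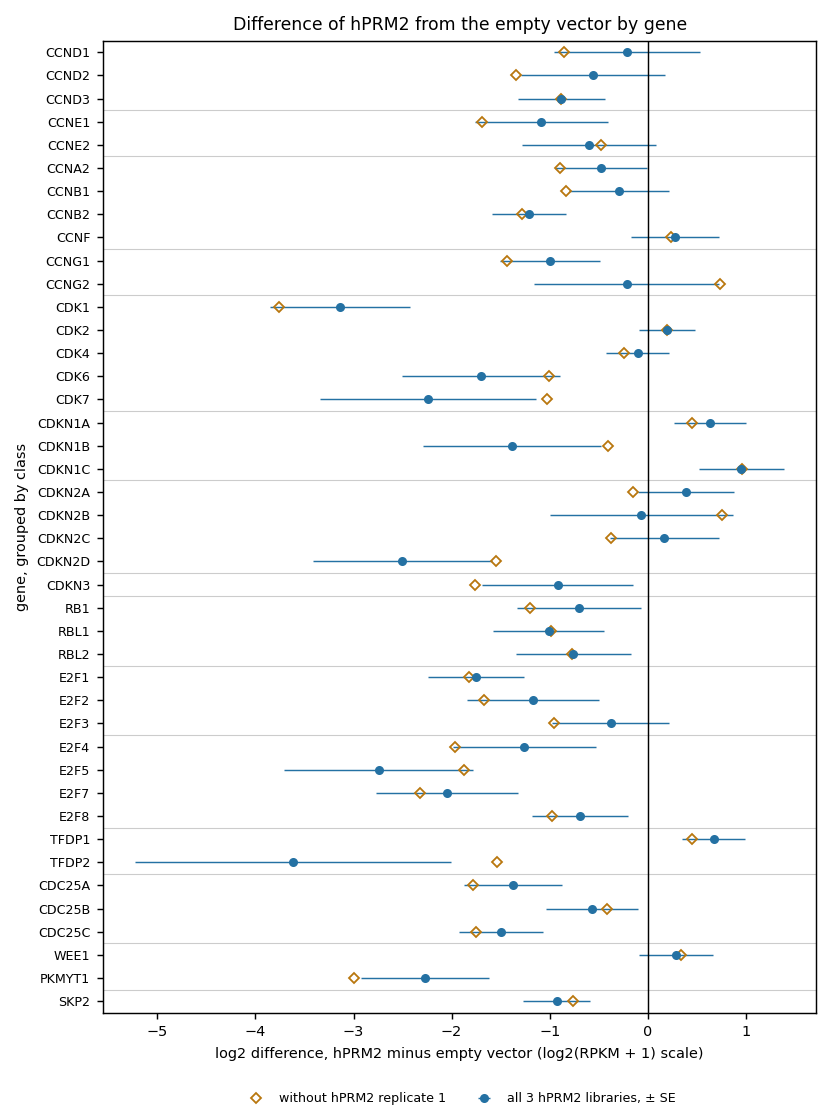
Log2 difference between hPRM2 and the empty vector for each gene, with all 3 hPRM2 libraries (filled circles, with the standard error) and without hPRM2 replicate 1 (open diamonds). CDK1 and PKMYT1 are farthest to the left without replicate 1, and TFDP2 moves from -3.62 to -1.53 when it is left out.

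The libraries labelled hPRM1 were also set against hPRM2, a comparison that shares the former with the one above. Of the 42 genes 38 were tested, 13 of which passed the filter only through hPRM2 and had to differ. The 13 were CCND1, CCNE1, CCNE2, CCNA2, CCNB2, CCNF, CDK1, CDKN2C, CDKN3, RBL1, E2F1, CDC25A and CDC25C. All 13 are among the genes called lower below, where their calls are a description and no support. CDKN2B, E2F5, E2F7 and E2F8 were not tested. By limma 23 were lower and 3 higher (CCND3, CDKN2D and RBL2), where 37% of 11756 genes tested were lower and 16% higher. Under the median of ratios 22 were lower and 8 higher (18.3% and 31.2% of all genes) and under quantile normalization 22 and 6 (26.4% and 24.6%). CCND3 differed by 2.12 ± 0.29 (adjusted p = 0.00146), CDKN2D by 4.36 ± 0.87 (adjusted p = 0.00667) and RBL2 by 1.93 ± 0.46 (adjusted p = 0.0123, limma). Without replicate 2 or 3 labelled hPRM1, RBL2 was not called (adjusted p = 0.0538 and 0.0557). The largest fall was again that of CDKN2A, by -8.29 ± 0.60. RBL1 was called lower at -1.05 ± 0.28 as deposited and stood at 0.0072 under the median of ratios, and its call was also lost without replicate 1 or 3 labelled hPRM1 or hPRM2 replicate 2. CDKN1C turned from -0.50 ± 0.39 to 1.36 (called) there. Both comparisons use the libraries labelled hPRM1, so their likeness is not independent support.

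The wider machinery was read from 69 further genes, of which 62 were tested against the empty vector in the libraries labelled hPRM1. As deposited 48 were lower and none higher by limma at a fold of at least 2 (at an unadjusted p under 0.05 alone, 50 lower and 1 higher), and under the median of ratios 27 were lower and 11 higher. The counts of called genes stand beside the 62.5% of all genes called lower as deposited and 28.9% lower and 28.8% higher under the median of ratios. The share of all genes at an unadjusted p under 0.05 was not counted. Some of the 62 passed the filter only through the empty vector and had to differ, and how many did so was not counted. Among them were LIN9, FOXM1, CCNJ, CCNO, CDK8, CDK18, CDK20, CABLES1 and CABLES2, whose part in these counts is no support. All 10 tested DREAM and MYB-MuvB genes were lower as deposited and 5 under the median of ratios. MYBL2, which turns this complex into an activator in cycling cells, had the largest difference of the 10, at 134.4, 139.7 and 166.2 RPKM in the empty vector against 0.928, 2.29 and 1.60 (-5.85 ± 0.25, adjusted p = 5.13e-06, limma). Of the ubiquitin ligase genes 14 of 16 were lower (9 lower and 2 higher under the median of ratios), led by UBE2C, the ubiquitin-conjugating enzyme of the anaphase-promoting complex, at 928.6, 995.8 and 1217 RPKM against 3.09, 4.31 and 3.39 (-7.83 ± 0.20, adjusted p = 1.97e-06, limma). Of the other CDKs and CDK partners 16 of 23 were lower (10 lower and 5 higher), with CKS2, a small subunit of CDK1 complexes, at 957.4, 865.3 and 850.6 RPKM against 1.88, 0 and 0.527 (-9.09 ± 0.38, adjusted p = 4.78e-06, limma). Of the other cyclins 8 of 13 were lower, a share no larger than that of all genes (3 lower and 4 higher under the median of ratios), with CCNH, the partner of CDK7, at 83.1, 38.3 and 58.5 RPKM against 6.33, 0.333 and 2.35 (-4.18 ± 0.63, adjusted p = 0.000824, limma).

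In hPRM2, 3 of 62 tested genes of these lists were lower and none higher than in the empty vector by limma. Of all genes tested, 1.37% were called lower and 1.36% higher. At an unadjusted p under 0.05 alone, 18 of the 62 were lower and 1 higher. The share of all genes at that threshold was not counted. UBE2C read 292.5, 205.5 and 416.6 RPKM, below every empty vector library (-1.83 ± 0.33, adjusted p = 0.0413), and was not called under the median of ratios (-1.26). CCNO, a cyclin of multiciliated cells, and CDK20 were each listed at 0 in all 3 hPRM2 libraries, from 4.44 to 8.15 and 3.33 to 4.20 RPKM in the empty vector, levels at which the shallow hPRM2 libraries hold few reads. CCNO and CDK20 passed the filter only through the empty vector and had to differ, so their calls are a description and no support. Between the libraries labelled hPRM1 and hPRM2, 26 of 53 tested genes were lower and 1 higher (37% and 16% of all genes). Some of the 53, LIN9 and FOXM1 among them, passed the filter only through hPRM2 and had to differ. The higher gene was CDK2AP2, which encodes a CDK2-associated protein (1.05 ± 0.33, adjusted p = 0.0347, limma).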

How the data were processed

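The members and the gene lists were chosen with earlier results of these data known. RNA of 9 libraries was prepared by the authors as 3′ QuantSeq libraries, sequenced on a NovaSeq and processed with nf-core/rnaseq (FastQC, cutadapt, STAR, Salmon; versions not given in the sources used here) on hg38, per the submitters' processing notes. Mitochondrial genes had been removed, and the deposited values are RPKM, tested here in place of counts. The annotation was not given in the sources used here. Gene positions came from GENCODE 29 (GRCh38), and promoters from RefSeq.

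Groups followed the labels. Genes with at least 1 RPKM in at least 3 of the 6 libraries compared were fitted with limma on log2(RPKM + 1), with a trended, robust prior, and calls needed a Benjamini-Hochberg adjusted p of at most 0.05 and a fold of at least 2. Differences on this scale understate those of low genes. Ratios were tested by exact permutation. The fit was tested on simulated data. Reads per library were estimated from the steps of the values, and depth limits the low genes. Genes described individually were the D cyclins, RBL1 and RBL2, the largest called change in each direction in each class, members whose direction turned with scaling, and the largest called change in each further list. Alternatives were the pseudocount, filter, scaling, replicate block, a fit of all 9 libraries, no fold threshold and leaving out each library.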

Additional observations from a re-analysis of the deposited data

How the results depend on the processing

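Counting a change of sign only for values called on either side, 574 of 619 values of single genes in the hPRM1-labelled libraries against the empty vector, 525 of 558 against hPRM2 and 603 of 619 in hPRM2 against the empty vector kept their call under the alternatives. Whether called or not, the sign turned in 15, 27 and 27 values, of 6, 9 and 12 genes. The cause of the changes was not tested. Against the empty vector, 9 genes were higher in the libraries labelled hPRM1 under the median of ratios and 8 under quantile normalization, and against hPRM2 8 and 6. As deposited 82.9% of all called genes were lower against the empty vector, 50% under the median of ratios and 55.8% under quantile normalization, and against hPRM2 69.9%, 37% and 51.7%. The genes that turned against the empty vector under these scalings were CCND2 (0.39 and 0.0437), CCNG2 (1.23 and 1.10), CDKN1B (1.80 and 1.46), E2F2 (1.64 and 1.42), E2F3 (0.95 and 0.55) and E2F4 (1.06 and 0.65). Against hPRM2, CDKN1C (1.36), RBL1 (0.0072), CCND2 (0.68), CCNG2 (1.07), CDK6 (0.86), CDK7 (0.78), E2F3 (1.08) and TFDP2 (1.13) turned under the median of ratios. In hPRM2 against the empty vector, CCND1, CCNA2, CCNB1, CCNG2, CDK4, CDKN2B and E2F3 did, none of them called.

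In hPRM2 6 members were lower than in the empty vector in the fit of all 9 libraries, and 0 to 10 when 1 library was left out, 10 without hPRM2 replicate 1. Over all genes 359 were called, 2125 in the fit of all 9. The replicate numbers did not pair the libraries (correlations of -0.0783 to 0.0795). With the replicate as a block, 34 members were lower and 3 higher in the libraries labelled hPRM1 against the empty vector (62.9% and 13.1% of all genes) and 22 and 3 against hPRM2 (34.2% and 15.3%), and 0 and 0 in hPRM2, where 57 genes were called in all.

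Among ratios, CCND2/CCND1 came to -0.37 and -0.0484 in the libraries labelled hPRM1 against the empty vector and hPRM2 with a pseudocount of 5, and RBL2/RB1 to 0.0673 in hPRM2. With a pseudocount of 0.1, CCNE2/CCNE1 came to -0.21 and -0.77 (-0.23 against hPRM2 under the median of ratios) and CCNG2/CCNG1 to -0.0736 in hPRM2. Leaving out 1 library, hPRM2 against the empty vector ranged from -0.81 to 0.46 for CCND3/CCND2, -0.15 to 0.68 for RBL2/RBL1, -0.70 to 0.43 for RBL2/RB1, -0.18 to 1.21 for CCNE2/CCNE1 and -0.14 to 1.22 for E2F4/E2F1, and CCNE2/CCNE1 from -0.71 to 0.68 in the libraries labelled hPRM1 against hPRM2.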
